A study of Mus musculus with 6 samples.

Results

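The 44 collagen chain genes were followed in GC-2spd cells kept at normoxic or hypoxic oxygen. They were chosen by name, as every annotated gene whose symbol is Col, a number, the letter a and a number, and they make up 44 of the 43403 annotated genes measured. GC-2spd is an immortalized line derived from mouse spermatocytes, labelled as testis of a C57BL/6J background, and both groups are that same line, grown in DMEM with 10% fetal bovine serum. The normoxia group (21% O2) and the hypoxia group (1% O2) held 3 poly(A) RNA libraries each. The labels do not give the duration of hypoxia for these libraries and do not say whether the libraries came from separate cultures, so the p-values measure only the spread between these libraries, which may be technical.

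Collagens are proteins of the extracellular matrix built of 3 chains wound into a triple helix, and the helix requires glycine to recur once in each triplet of residues. Fibrillar collagens form the tensile fibrils of connective tissue, type IV collagens form the network of basement membranes, FACIT collagens (fibril-associated collagens with interrupted triple helices) sit on fibril surfaces, and type VI collagens form beaded filaments. Some chain genes stand in head-to-head pairs with a shared promoter region. In the endoplasmic reticulum the chains are hydroxylated by enzymes that use molecular oxygen, and after secretion they are trimmed and crosslinked. In the testis, basement membrane collagens surround the seminiferous tubules.

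The glycine repeat that defines the family can be read from the coding sequence. The following stretches of 60 coding bases come from the GENCODE M21 transcripts of 5 members that the results turn on, with the glycine codons (GGN) of the repeat in capitals.
Col1a1: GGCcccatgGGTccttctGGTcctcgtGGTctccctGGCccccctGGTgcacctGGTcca
Col4a1: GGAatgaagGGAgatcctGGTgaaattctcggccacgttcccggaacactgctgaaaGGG
Col16a1: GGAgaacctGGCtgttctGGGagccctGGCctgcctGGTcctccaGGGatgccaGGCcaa
Col6a1: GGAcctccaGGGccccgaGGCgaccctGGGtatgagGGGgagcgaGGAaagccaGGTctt
Col12a1: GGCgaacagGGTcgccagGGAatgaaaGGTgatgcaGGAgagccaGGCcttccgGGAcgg
The Col1a1 stretch spans codons 168 to 187, the Col16a1 stretch codons 1006 to 1025, the Col6a1 stretch codons 256 to 275 and the Col12a1 stretch codons 2805 to 2824, all with an unbroken repeat. The Col4a1 stretch, codons 154 to 173, was chosen to show a break in it. The longest unbroken run in Col1a1 was 338 triplets. In the other fibrillar chains measured above 1 TPM (Col1a2, Col5a1, Col5a2 and Col3a1) it was 338 to 344 triplets. In the type IV chains Col4a1, Col4a2, Col4a5 and Col4a6 the longest run was 40 to 66 triplets, and each of these chains held 22 to 25 runs of at least 5 triplets. It was 87 triplets in Col6a1 and in Col6a2, 52 in Col16a1 and 32 in Col12a1.

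Levels are given in TPM as StringTie writes it, a transcript's share of the library scaled to a fixed total and for transcript length, so levels of different genes can be set side by side. Each library held 5.747 to 6.722 gigabases of aligned sequence, as worked out from read depth and FPKM, and no read counts were given, so no counting intervals were computed. The correlation of log2 levels across genes (which are not independent replicates) between libraries of 1 group was 0.988 to 0.989 and between groups 0.951 to 0.953. The cell type named in the labels was checked against markers. None of 10 germ cell, 10 meiotic spermatocyte or 10 spermatid markers reached a mean of 1 TPM, the summed level of the meiotic markers was 0.618 to 0.964 TPM in normoxia and 0.299 to 0.607 TPM in hypoxia, and the meiotic genes Sycp1, Hormad1, Piwil1 and Tex11 were listed at 0 in every library. The cells are therefore called by the name of the line only.

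Of the 44 collagen genes, 17 had a mean of at least 1 TPM over the 6 libraries and were tested. They were compared between hypoxia and normoxia as log2(TPM + 1) with limma over all 13750 genes above that level, with a Benjamini-Hochberg threshold of 0.05. Among the tested members, 8 were higher in hypoxia (Col1a1, Col5a1, Col5a2, Col4a1, Col8a1, Col16a1, Col12a1 and Col7a1), 3 were lower (Col6a1, Col6a2 and Col18a1) and 6 were not called. Of all tested genes, 17.9% were higher, 36.1% were lower and 54.0% were called in either direction, beside 47.1%, 17.6% and 64.7% of the tested members. The hypoxia and normoxia ranges did not overlap for 12 of the 17 members and for 62.4% of all tested genes. The median log2 difference was 0.10 for the tested members and -0.13 for all tested genes, so a member with a log2 difference of 0 stood above the middle of the transcriptome.

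Summed over all 44 genes, collagen transcripts came to 3232 ± 56.6 TPM in normoxia and 3951 ± 126 TPM in hypoxia (SD, n = 3 each; sums were not tested). The total was 3201, 3198 and 3297 TPM in the normoxic libraries and 3960, 3821 and 4071 TPM in the hypoxic ones, with no overlap. As a share of the annotated TPM, the total was 0.326 to 0.336% in normoxia and 0.398 to 0.418% in hypoxia. Most of the rise lay in Col1a1, which averaged 1161 TPM in normoxia and 1720 TPM in hypoxia, while Col1a2 averaged 1123 and 1138 TPM. The fibrillar chains made up 79.0% ± 0.27 of the total in normoxia and 81.6% ± 0.90 in hypoxia, while the basement membrane chains made up 14.6% ± 0.31 and 12.9% ± 0.60 (SD, n = 3 each). The basement membrane share fell although the sum of that class was higher in hypoxia, at 471 ± 16.9 TPM in normoxia and 511 ± 10.9 TPM in hypoxia. The FACIT sum was 44.0 ± 1.51 TPM in normoxia and 80.7 ± 4.39 TPM in hypoxia. The beaded filament sum was 69.3 ± 5.68 TPM and 35.8 ± 1.03 TPM, so the order of these class sums was exchanged between the groups. Most of the FACIT sum came from Col16a1 (38.7 and 68.7 TPM) and most of the beaded filament sum from Col6a1 (60.8 and 31.6 TPM).

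**Figure D1:**
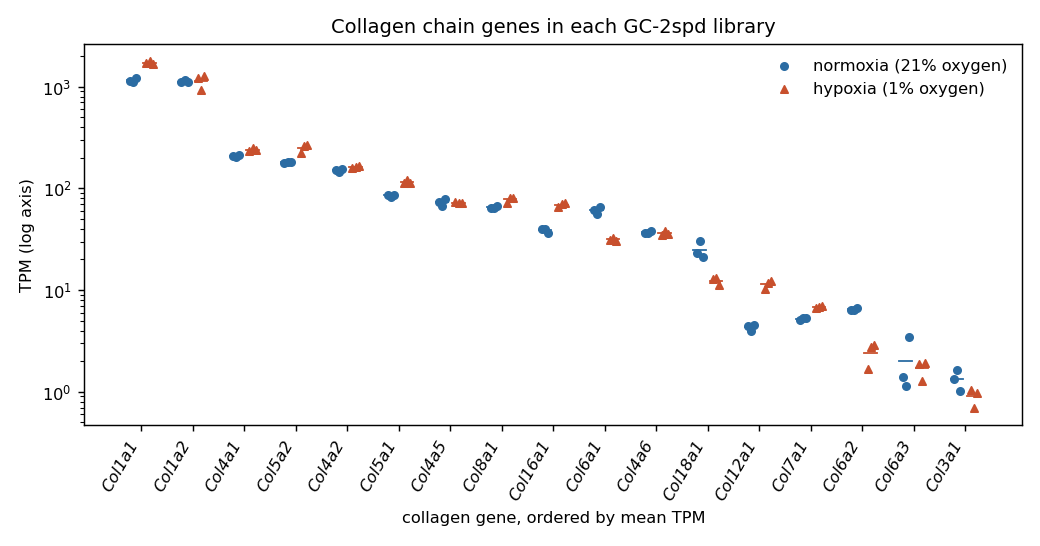
Levels of the 17 tested collagen genes in each of the 6 libraries, in TPM on a log axis, with points for single libraries coloured by group, short lines at the group means and genes ordered by mean TPM. Col1a1 and Col1a2 lie highest, and the hypoxia points of Col6a1, Col6a2 and Col18a1 lie below their normoxia points.

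Of 11 fibrillar genes 5 were tested, of which 3 were higher in hypoxia and none lower. Col1a1 (ENSMUSG00000001506, chr11:94936224-94953042, mm10), which encodes the alpha 1 chain of type I collagen, stood at 1147, 1116 and 1221 TPM in the normoxic libraries and at 1697, 1775 and 1687 TPM in the hypoxic ones. Every hypoxic library lay above every normoxic one, and the log2 difference was 0.57 (SE 0.04, limma adjusted p = 8.15e-05). Quantile normalization lowered the Col1a1 difference to 0.32 (limma adjusted p = 0.000547). Col1a1 was the 88th and Col1a2 the 116th most abundant of all annotated genes by mean TPM.

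Col1a2 (ENSMUSG00000029661, chr6:4504814-4541543), the partner chain of type I collagen, read 1110, 1153 and 1107 TPM in normoxia and 1224, 922 and 1269 TPM in hypoxia. The second hypoxic library lay below all normoxic libraries and the other two above them, so the groups overlapped. The log2 difference was 0.01 (SE 0.12, limma adjusted p = 0.972). Without that library it was 0.15 (limma adjusted p = 0.0236), so the lack of a call rests on 1 library. Quantile normalization turned the sign of the Col1a2 difference, to -0.27 (limma adjusted p = 0.0577). Type I trimers usually join Col1a1 chains with a Col1a2 chain in unequal number, and at the RNA level both genes were near equal in normoxia.

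Both tested type V chains, which help to set the diameter of type I fibrils, were higher in hypoxia. Col5a2 (ENSMUSG00000026042, chr1:45374321-45503282) stood at 177.5, 180.8 and 180.9 TPM in normoxia and 220.7, 262.3 and 268.5 TPM in hypoxia. Col5a1 (ENSMUSG00000026837, chr2:27886425-28039514) stood at 86.8, 82.4 and 86.7 TPM and at 113.6, 119.7 and 113.6 TPM. The groups did not overlap for either gene, with log2 differences of 0.47 (SE 0.08, limma adjusted p = 0.00199) for Col5a2 and 0.43 (SE 0.05, limma adjusted p = 0.00029) for Col5a1. Col5a1 shares 113 exon bases with Gm13372 on the opposite strand, and whether strand was used in quantification is not given in the sources used here. Col5a3, the remaining type V chain, was not tested, with a mean of 0.584 TPM, and stood highest among the untested members.

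Col3a1, which encodes type III collagen and lies 24614 bases from Col5a2 on chromosome 1, averaged 1.34 ± 0.307 TPM in normoxia and 0.908 ± 0.188 TPM in hypoxia (SD, n = 3 each). Its log2 difference of -0.29 was not called (limma adjusted p = 0.201). It was the tested member nearest to the minimum level, with a mean of 1.12 TPM, and its read depth was 1.64 to 2.80 reads per base, against 2379 to 4201 for Col1a1.

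Of 6 type IV genes 4 were tested, 1 was higher in hypoxia and none was lower. Col4a1 (ENSMUSG00000031502, chr8:11198423-11312826) read 208.0, 205.4 and 215.2 TPM in normoxia and 234.3, 247.8 and 240.1 TPM in hypoxia, without overlap. The log2 difference was 0.20 (SE 0.04, limma adjusted p = 0.00518), and 0.35 after median-ratio scaling (limma adjusted p = 0.00041). Col4a2 (ENSMUSG00000031503, chr8:11312805-11449287), with which Col4a1 forms the common type IV trimer, read 151.5, 145.7 and 156.1 TPM in normoxia and 157.0, 162.8 and 164.6 TPM in hypoxia. Its groups did not overlap either, but the log2 difference of 0.10 (SE 0.04) did not pass the test (limma adjusted p = 0.103). The call for Col4a2 depended on scaling, since it was higher with median-ratio scaling (log2 difference 0.24, limma adjusted p = 0.00159) and with quantile normalization (0.13, limma adjusted p = 0.0283). The genes of this pair run in opposite directions from starts 21 bases apart.

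The second head-to-head pair, Col4a5 and Col4a6 on chromosome X, has starts 1309 bases apart. Col4a5 (ENSMUSG00000031274, chrX:141475385-141689234) stood at 74.3, 66.9 and 78.8 TPM in normoxia and 73.1, 71.9 and 71.5 TPM in hypoxia. All hypoxic values fell inside the normoxic range, with a log2 difference of -0.02 (SE 0.07, limma adjusted p = 0.821). Col4a6 averaged 37.0 ± 1.06 TPM in normoxia and 36.3 ± 1.86 TPM in hypoxia (SD, n = 3 each), with a log2 difference of -0.03 (limma adjusted p = 0.703). Under both other scalings the differences of Col4a5 and Col4a6 were above 0 and still not called. The third pair, Col4a3 and Col4a4, known from the kidney filter, stayed below a mean of 0.1 TPM.

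Of 9 FACIT genes 2 were tested, and both were higher in hypoxia. Col12a1 (ENSMUSG00000032332, chr9:79598991-79718831), whose product lies along type I fibrils, stood at 4.40, 3.97 and 4.52 TPM in normoxia and 10.3, 11.6 and 12.2 TPM in hypoxia. Its log2 difference of 1.22 (SE 0.10, limma adjusted p = 9.14e-05) was the greatest rise among the tested members. Col16a1 (ENSMUSG00000040690, chr4:130047840-130099283) stood at 39.7, 39.8 and 36.5 TPM in normoxia and 64.9, 69.7 and 71.6 TPM in hypoxia. Its log2 difference was 0.81 (SE 0.06, limma adjusted p = 7.19e-05), and neither gene's groups overlapped.

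Of the type VI genes, which form beaded filaments, 3 were tested, 2 were lower in hypoxia and none was higher. Col6a1 (ENSMUSG00000001119, chr10:76708792-76726168) read 61.3, 56.2 and 65.0 TPM in normoxia and 31.2, 32.8 and 30.7 TPM in hypoxia. Col6a2 (ENSMUSG00000020241, chr10:76595762-76623630) read 6.34, 6.44 and 6.63 TPM and 1.66, 2.73 and 2.92 TPM. The groups were apart for both genes, with log2 differences of -0.92 (SE 0.07, limma adjusted p = 6.49e-05) for Col6a1 and -1.14 (SE 0.16, limma adjusted p = 0.00117) for Col6a2. Col6a3, the largest chain of the trimer, read 1.40, 1.13 and 3.48 TPM in normoxia and 1.89, 1.28 and 1.94 TPM in hypoxia, and its log2 difference of -0.08 was not called (limma adjusted p = 0.837). The third normoxic library alone lay above all others.

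Col18a1 (ENSMUSG00000001435, chr10:77052178-77166548), a multiplexin of basement membranes whose C-terminal fragment is endostatin, stood at 23.0, 30.5 and 21.3 TPM in normoxia and 12.9, 13.1 and 11.2 TPM in hypoxia. It was lower in each hypoxic library than in any normoxic one, with a log2 difference of -0.94 (SE 0.14, limma adjusted p = 0.00138). Col8a1 (ENSMUSG00000068196, chr16:57624258-57754737), a short-chain collagen, stood at 64.4, 63.7 and 66.9 TPM in normoxia and 72.3, 80.7 and 80.8 TPM in hypoxia. The groups did not overlap, and the log2 difference was 0.26 (SE 0.06, limma adjusted p = 0.00918), or 0.40 after median-ratio scaling (limma adjusted p = 0.000712). Col7a1, the anchoring fibril collagen of skin, averaged 5.26 ± 0.144 TPM in normoxia and 6.80 ± 0.200 TPM in hypoxia (SD, n = 3 each), with a log2 difference of 0.32 (limma adjusted p = 0.0147). Quantile normalization gave 0.54 for Col7a1 (limma adjusted p = 0.00142). The call was lost when the locus assembled from the reads replaced the annotated gene (log2 difference 0.24, limma adjusted p = 0.0872).

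**Figure D2:**
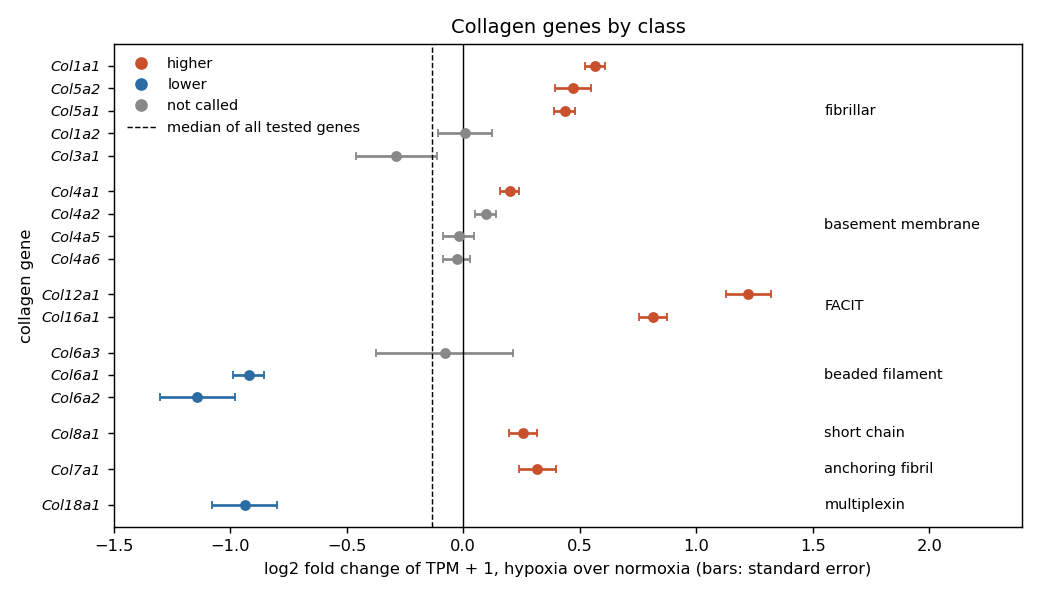
Log2 difference of hypoxia minus normoxia on log2(TPM + 1) for the 17 tested collagen genes, grouped by class, with bars of 1 SE on each side and a dashed line at the median of all tested genes (-0.13). Col12a1 lies farthest to the higher side and Col6a2 farthest to the lower side.

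The remaining 27 genes had mean levels of 0 to 0.584 TPM and were not tested. Of these, 7 were listed at 0 in every library (Col13a1, Col19a1, Col26a1, Col6a5, Col6a6, Col9a1 and Col9a2). The others were Col5a3, Col20a1, Col11a2, Col11a1, Col10a1, Col9a3, Col15a1, Col22a1, Col4a4, Col14a1, Col6a4, Col2a1, Col25a1, Col17a1, Col4a3, Col23a1, Col8a2, Col24a1, Col27a1 and Col28a1. The cartilage chains Col2a1 and Col10a1, and the transmembrane chains as a class, were thus near or at 0. When the minimum level was dropped, 3 more members were called lower in hypoxia, Col9a3, Col11a1 and Col15a1. Col9a3 read 0.344, 0.277 and 0.336 TPM in normoxia and 0.0724, 0.0297 and 0.0340 TPM in hypoxia. Col11a1, a fibrillar chain of cartilage, averaged 0.325 ± 0.024 TPM and 0.174 ± 0.017 TPM (SD, n = 3 each). Read depth over Col11a1 was 0.354 to 0.881 reads per base, so these levels rest on few reads.

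Chains that share a trimer were compared by the ratio of their TPM. Col1a1 over Col1a2 was 1.03, 0.968 and 1.10 in normoxia and 1.39, 1.93 and 1.33 in hypoxia. Col4a1 over Col4a2 was 1.37, 1.41 and 1.38 in normoxia and 1.49, 1.52 and 1.46 in hypoxia. Col6a1 over Col6a2 was 9.67, 8.72 and 9.81 in normoxia and 18.8, 12.0 and 10.5 in hypoxia. For these 3 pairs the hypoxic ratios all lay above the normoxic ones, with a 2-sided exact permutation p of 0.1, the smallest that 3 against 3 libraries can give (0.233 adjusted over 7 pairs), so the design cannot reach the threshold. Col5a2 over Col5a1 averaged 2.11 ± 0.076 in normoxia and 2.17 ± 0.212 in hypoxia, and Col4a5 over Col4a6 averaged 1.98 ± 0.138 and 1.99 ± 0.113 (SD, n = 3 each; exact permutation p = 0.8 for each pair). The ratios of Col6a1 and Col6a2 to Col6a3 overlapped between the groups (exact permutation p = 0.2 for each).

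**Figure D3:**
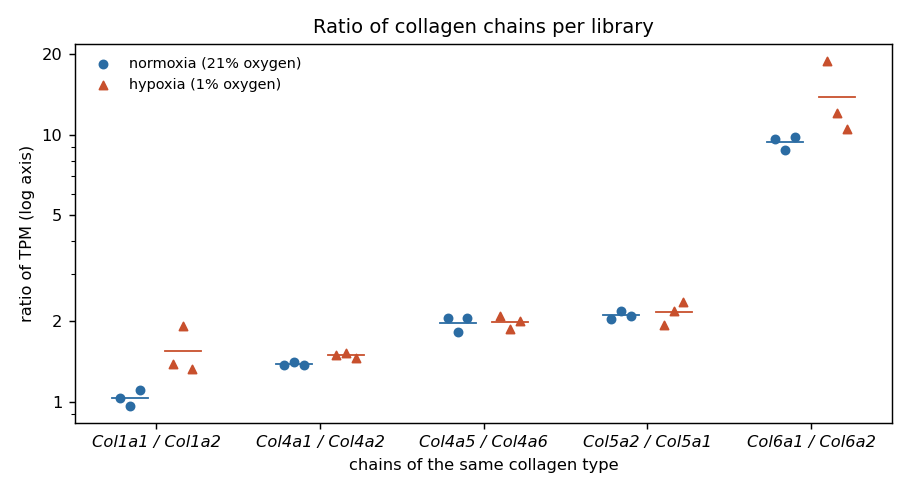
Ratio of TPM between chains of the same collagen type in each library, on a log axis, with normoxia and hypoxia as separate points and short lines at the group means. The ratios of Col1a1 to Col1a2, Col4a1 to Col4a2 and Col6a1 to Col6a2 are higher in every hypoxic library, and those of Col5a2 to Col5a1 and Col4a5 to Col4a6 overlap.

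The 3 members called lower share a place in the genome. Col6a2, Col6a1 and Col18a1 lie in this order, on the same strand, within 76595762 to 77166548 of chromosome 10, a stretch of 571 kb. It holds 5 tested genes, of which 4 were lower in hypoxia, none was higher and 1 was not called. The other tested genes were Slc19a1, a folate carrier, which was lower, and Pcbp3, which was not called. Slc19a1 overlaps Col18a1 on the opposite strand, with 0 shared exon bases, and whether strand was used in quantification is not given. Since 36.1% of all tested genes were lower, and the members were known when the stretch was drawn, the count of lower genes is a description. Elsewhere, the neighbours Col5a2 and Col3a1 had log2 differences of 0.47 (called) and -0.29 (not called), and whether these differ was not tested.

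Promoters were searched for the core of the hypoxia response element, the letters ACGTG or GCGTG on both strands, in the window from 250 bases before to 50 bases after each RefSeq start (GRCm38.p6). RefSeq entries were matched for 14 of the 17 tested members and not for Col1a1, Col5a2 and Col12a1. Of the 14, 6 held the letters in at least 1 window (Col1a2, Col4a1, Col4a2, Col5a1, Col16a1 and Col6a2). Counted by window, 37.5% of the 16 windows of these genes held them, as did 43.8% of all 32851 promoter windows. The 250 bases before the start are shown for 2 members called higher and 1 called lower, with matches in capitals.
Col5a1, chr2:27886175-27886424, plus strand: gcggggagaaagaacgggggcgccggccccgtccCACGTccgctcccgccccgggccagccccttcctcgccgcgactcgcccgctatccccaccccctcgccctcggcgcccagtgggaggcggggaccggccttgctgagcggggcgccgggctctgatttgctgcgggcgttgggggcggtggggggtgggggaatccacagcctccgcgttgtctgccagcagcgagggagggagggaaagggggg
Col16a1, chr4:130047590-130047839, plus strand: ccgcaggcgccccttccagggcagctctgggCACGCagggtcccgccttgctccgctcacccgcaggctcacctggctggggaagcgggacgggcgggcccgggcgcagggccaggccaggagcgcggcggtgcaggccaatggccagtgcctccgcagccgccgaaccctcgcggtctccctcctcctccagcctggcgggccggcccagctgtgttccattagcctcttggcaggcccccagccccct
Col6a2, chr10:76623631-76623880, minus strand: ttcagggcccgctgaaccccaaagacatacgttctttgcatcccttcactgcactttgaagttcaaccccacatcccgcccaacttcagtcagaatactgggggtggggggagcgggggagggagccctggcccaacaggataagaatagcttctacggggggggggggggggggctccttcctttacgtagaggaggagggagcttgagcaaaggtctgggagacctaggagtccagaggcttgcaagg
The Col5a1 and Col16a1 stretches hold 1 match each, and this Col6a2 stretch holds none, while a second window of Col6a2 holds 1. Col1a2 held the letters without a call, and Col8a1 and Col7a1 were called higher without them. A match is a description of the letters, not of binding.

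Around the chains, the genes that modify them before folding were split in direction. Counts in this and the later lists stand beside 17.9% higher and 36.1% lower among all tested genes, whose median log2 difference was -0.13. Whether any list departs from these shares was not tested. Of 14 tested genes of chain modification, 6 rose in hypoxia, 5 fell and 3 did not pass the test, with a median log2 difference of -0.05. P4ha2, a catalytic subunit of prolyl 4-hydroxylase, read 109.9, 125.6 and 127.0 TPM in normoxia and 441.5, 501.6 and 467.3 TPM in hypoxia (log2 difference 1.95, SE 0.07, limma adjusted p = 5.22e-06). Plod2, a lysyl hydroxylase that acts on the telopeptides, read 118.0, 115.6 and 119.8 TPM and 363.9, 422.1 and 424.0 TPM (log2 difference 1.76, SE 0.07, limma adjusted p = 5.05e-06). The groups lay far apart for both genes. P4ha1 rose from 183 ± 6.90 to 428 ± 17.1 TPM, and P4hb, the shared beta subunit, from 836 ± 8.86 to 1434 ± 24.7 TPM (SD, n = 3 each). P4ha3, the remaining catalytic subunit, fell, and stood at 37.2 ± 0.958 TPM in normoxia and 13.7 ± 0.581 TPM in hypoxia (log2 difference -1.38, limma adjusted p = 9.35e-06). P3h4, P3h2 and Ppib were also lower, but the call for Ppib was lost with median-ratio scaling (log2 difference -0.03, limma adjusted p = 0.625) and that for P3h2 with quantile normalization (-0.42, limma adjusted p = 0.0625).

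Of 14 tested genes of folding and export, 2 rose, 7 fell and 5 did not pass the test (median log2 difference -0.23). Serpinh1, the collagen chaperone HSP47, was among the lower ones, with a log2 difference of -0.23 (limma adjusted p = 0.000652) that came to -0.09 with median-ratio scaling (limma adjusted p = 0.041) and -0.47 with quantile normalization (limma adjusted p = 4.8e-05). The 4 lower genes with the smallest adjusted p were Sec13 and Sec23b of the COPII coat and the prolyl isomerases Fkbp14 and Fkbp10. Sec13 averaged 189 ± 2.64 TPM in normoxia and 136 ± 3.97 TPM in hypoxia. Mia3, a cargo receptor for procollagen, and Sec23a were higher, with Mia3 at 129 ± 6.11 and 145 ± 3.79 TPM (SD, n = 3 each).

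Of 10 tested genes of propeptide removal and crosslinking, 2 rose, 5 fell and 3 did not pass the test (median -0.27). Both higher genes were lysyl oxidases. Loxl2 read 91.1, 92.5 and 103.2 TPM in normoxia and 187.3, 202.0 and 186.8 TPM in hypoxia (log2 difference 1.00, SE 0.06, limma adjusted p = 3.61e-05). Lox averaged 365 ± 41.8 and 562 ± 59.7 TPM (SD, n = 3 each; log2 difference 0.62, limma adjusted p = 0.00265). The other members of the lysyl oxidase family, Loxl1, Loxl3 and Loxl4, were all lower, with Loxl3 at 43.1 ± 4.67 TPM in normoxia and 22.7 ± 1.82 TPM in hypoxia. Adamts14, a procollagen N-propeptidase, was lower as well, at 18.6 ± 1.23 and 9.87 ± 0.976 TPM.

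Of 15 tested fibril and matrix partners, 7 rose, 3 fell and 5 did not pass the test (median 0.17). The higher genes with the smallest adjusted p were Thbs1, Hspg2, Nid1 and Tnc. Hspg2 (perlecan) and Nid1 (nidogen), which join type IV collagen to the rest of the basement membrane, rose from 193 ± 7.96 to 320 ± 6.97 TPM and from 95.8 ± 4.10 to 155 ± 4.88 TPM (SD, n = 3 each). The lower genes were Lama1, Ogn and Tnxb, with Lama1 at 5.00 ± 0.075 and 1.75 ± 0.139 TPM.

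Of 7 tested receptors, 2 were higher (Itgb1 and Mrc2), 2 were lower (Itga1 and Cd44) and 3 were not called (median -0.12). The integrin beta 1 subunit Itgb1 averaged 334 TPM in normoxia and 406 TPM in hypoxia (log2 difference 0.28, SE 0.05, limma adjusted p = 0.00261). The call for Cd44 was lost under both other scalings (limma adjusted p = 0.296 and 0.0509). Of 10 tested genes of collagen degradation, 1 was higher (Mmp2), 5 were lower and 4 were not called (median -0.30). The lower ones with the smallest adjusted p were Timp1, Mmp14, Mmp19 and Timp2, so both proteinases and inhibitors of them were lower. Timp1 averaged 144 ± 3.38 and 90.0 ± 1.86 TPM (SD, n = 3 each).

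Of 16 tested genes of TGF beta signalling, a pathway known to raise fibrillar collagen transcription, 5 rose, 5 fell and 6 did not pass the test (median -0.04). The target gene Ccn2 was higher, at 82.3 ± 1.93 TPM in normoxia and 164 ± 9.53 TPM in hypoxia. Ltbp3 and Tgfbr3 were higher as well. The ligand Tgfb3, the receptors Tgfbr1 and Tgfbr2 and the mediator Smad3 were lower, with Tgfbr1 at 29.8 ± 0.288 and 14.0 ± 1.04 TPM (SD, n = 3 each).

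**Figure D4:**
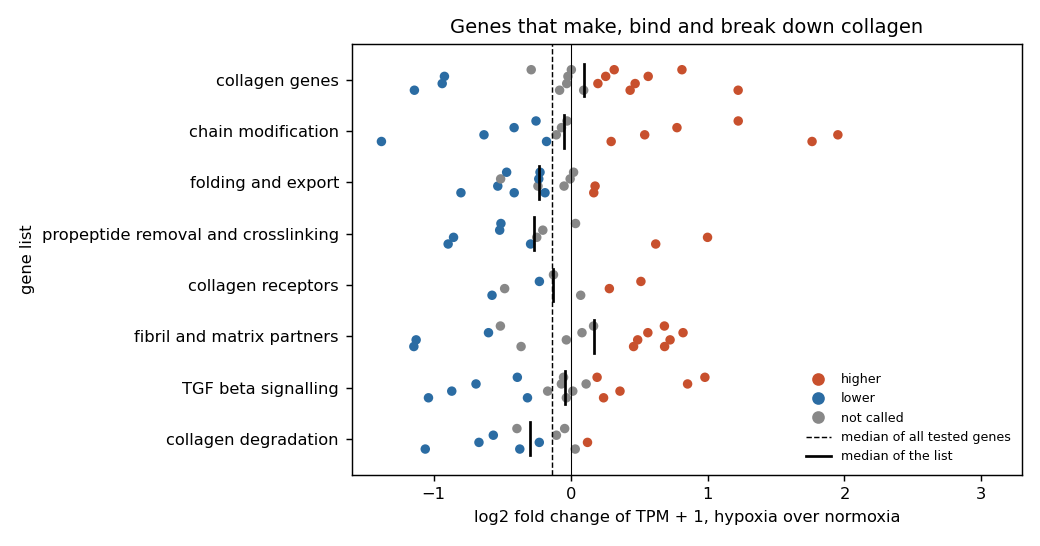
Log2 difference of hypoxia minus normoxia for the tested genes of each pathway list and of the collagen genes, 1 point per gene, coloured by call, with a short line at each list's median and a dashed line at the median of all tested genes (-0.13). Chain modification spreads widest, from P4ha3 to P4ha2, and every list holds genes called in both directions.

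Markers of other cells that make collagen were read beside these results. Of 11 fibroblast and myoid markers 6 were tested, with 2 higher, 2 lower and 2 not called (17.9% higher and 36.1% lower among all tested genes). Their summed level was 1089 to 1973 TPM in normoxia and 4009 to 4203 TPM in hypoxia, nearly all from Vim, which read 1016, 1883 and 1905 TPM and then 3937, 4131 and 4091 TPM. Pdgfra and Pdgfrb were lower in hypoxia, Pdgfrb at 6.62 ± 0.207 TPM in normoxia and 1.45 ± 0.185 TPM in hypoxia (SD, n = 3 each). Thy1 and Tcf21 were listed at 0 in every library. Of 10 Sertoli cell markers 3 were tested, with 1 higher (Sox9, 6.41 and 13.3 TPM) and 2 not called. The median log2 difference of these 3 was -0.13. The 10 markers summed to 42.8 to 54.7 and 45.2 to 56.4 TPM, with Fshr and Aard at 0. Of 8 Leydig cell markers 3 were tested, with 1 higher (Insl3) and 2 not called, and a median log2 difference of -0.12. For 1 of the 2 not called, all hypoxic values lay below the normoxic ones. The 8 markers summed to 64.7 to 69.2 and 65.0 to 69.1 TPM, with Hsd3b1 and Lhcgr at 0. Macrophage markers (2 of 8 tested, with Cd68 higher and 1 not called) summed to 7.20 to 8.95 and 10.5 to 11.6 TPM. Adgre1, Ptprc, Lyz2 and C1qa stood at 0. Endothelial markers (0 of 7 tested) summed to 0.960 to 2.27 and 0.294 to 1.51 TPM, with Cdh5 and Emcn at 0. Germ cell markers summed to 1.25 to 1.82 and 1.09 to 1.33 TPM, with Mael, Tex101, Zbtb16 and Sall4 at 0, and spermatid markers to 0.520 to 0.865 and 0.582 to 1.40 TPM. Both groups are the same cell line, which the paper describes as homogeneous, so these levels describe RNA of the culture as a whole. Whether other cells were present was not tested. In bulk RNA fewer cells of a type and less RNA per cell cannot be told apart.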

How the data were processed

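Poly(A) RNA of GC-2spd cells was sequenced in pairs on an Illumina NovaSeq. The authors used Cutadapt for read filtering, HISAT2 for alignment to the mm10 genome and StringTie for quantification. Versions and the annotation release are not given in the sources used here. The deposited values are coverage (mean read depth), FPKM and TPM. The deposited TPM column is treated as a signal, because assembled loci sum to 1000000 and annotated genes, listed beside them, to 948284 to 981418. The deposited coverage served for read depth, and the deposited FPKM as an alternative. The design assumed an ordinary TPM table. Only annotated genes were analysed.

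Of 43432 gene IDs, 42548 matched GENCODE M21 and 884 were kept under their ID. IDs of the same symbol were summed, which left 43403 genes. Testing was limited to genes averaging 1 TPM or more over all libraries, and limma 3.58.1 was run on log2(TPM + 1) (R 4.3.3, variance trend, 2-sided). A pseudocount of 1 shrinks changes of low genes. The authors tested counts with edgeR, and counts were not used here. The steps were tested on simulated data with 200 changed genes. Of these, 39% were called at a log2 change of 0.5, 82% at 1 and 96% at 2. A gene that was not called may thus have changed. The 3 libraries per group limit the precision.

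The members, classes and lists were chosen with earlier results of these data known. Libraries are shown one by one for members called with a log2 difference of at least 0.5 or among the 10 most abundant. Of each pathway list, up to 4 genes per direction with the smallest adjusted p were named, apart from 1 gene that is not reported here. Serpinh1, Slc19a1, Pcbp3, the cell type markers given with values, and Col9a3, Col11a1 and Col15a1 as single genes were named after their values were seen. Alternatives covered pseudocount, minimum level, FPKM, scaling, variance trend, the replicate number and each library left out. Small RNA and mass spectrometry measurements were not analysed here.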

Additional observations from a re-analysis of the deposited data

How the results depend on the processing

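The 8 higher and 3 lower collagen genes were recomputed under each alternative. Without a minimum level 6 were lower, since more genes were tested. The median log2 difference of the collagen genes was 0.15 with FPKM (over 15 members, as Col6a3 and Col3a1 fell below the minimum level, against 0.20 with TPM over those 15), 0.24 with median-ratio scaling, 0.13 among protein-coding genes with rescaled TPM (an alternative chosen after seeing the data), and 0.070 to 0.22 when each library was left out in turn. Of 253 values for single collagen genes, 247 stayed on the same side of the threshold, 5 came to be called and 1 (Col7a1 with the assembled locus, also chosen after seeing the data) was lost. Those that came to be called were Col4a2 (by both scalings named below and among protein-coding genes), Col1a2 without hypoxia replicate 2, and Col3a1 with the assembled locus (-0.69, limma adjusted p = 0.0463), where the locus taken spans different stretches of the gene from library to library. No call changed sign. Scaling set the balance of all calls: 33.1% of them were higher here, 49.9% by the median-ratio method and 49.6% after quantile normalization, which moved the median of all genes to 0.00. Of the 32 lower calls in the pathway lists (recomputed after seeing the data), 26 stayed lower by the first method and 28 by the second, and the 25 higher calls stayed higher by both.

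With the replicate number as a replicate block, 8 collagen genes were higher and 3 lower, and over all genes 2282 were higher and 4674 lower, against 2463 and 4967. Same-numbered libraries did not deviate together (correlations 0.026, 0.033 and 0.011), but this cannot show whether they share a culture or a preparation, which the labels do not give. With no counts, depth limits the genes near 1 TPM (Col3a1, Col6a3) most.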

Other observations

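StringTie assembled 2 to 6 separate loci from the reads at Col7a1 in each library. The one that overlapped the longest stretch of the gene lay in its 3′ part in each library. In the first normoxic library it ran from 108978783 to 108983916 on chromosome 9, while the annotated Col7a1 gene runs from 108953586 to 108984875. Its bounds differed from library to library, and in the second hypoxic library it ran from 108975336 to 108983916. The locus taken in each library read 18.1, 21.3 and 20.6 TPM in normoxia and 25.4, 20.8 and 25.6 TPM in hypoxia. The annotated gene had means of 5.26 and 6.80 TPM. Both values are scaled for their own length, so neither is a share of the other.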
